A study of Mus musculus with 5 samples.

Results

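Plagl1 and the imprinted genes connected with it were followed across 5 Affymetrix arrays of mouse thymic cell suspensions. The group was defined by name as 10 genes, Plagl1, H19, Igf2, Igf2r, Mest, Peg3, Cdkn1c, Dlk1, Meg3 and Grb10, and every probe set carrying one of these symbols or an older synonym in the deposited expression table was taken. Older symbols were Gtl2 for Meg3 and 2610311E24Rik for Plagl1. In all, 34 of 45101 probe sets matched, for 9 of the 10 genes, out of 19764 named genes. No probe set carried the name Mest or its synonym Peg1, so Mest was not analysed here. Copg2, a gene of the wider imprinted list below, overlaps Mest by 913 bases on chromosome 6, and whether its probe sets also report Mest was not tested. The genes were chosen with earlier results of these arrays known, among them the culture response of Plagl1, so their values are a description and carry no test.

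The study asked how glucocorticoid-treated thymic cells differ from their vehicle controls in the animal and in culture. The groups were mice 4 h after intraperitoneal injection of 0.2 mg dexamethasone per mouse, mice 4 h after injection of phosphate-buffered saline (PBS), suspensions held for 4 h in culture with dexamethasone (10e-7 M in the labels), suspensions cultured for 4 h with 0.1% ethanol, and mice without treatment. RNA was pooled from 3 males of the outbred CD-1 stock, which were 4 to 6 weeks old, and each group had 1 array. No difference between a pair of arrays therefore has a replicate check or an error, and precision is limited by the number of arrays. The labelled tissue was checked against 10 markers of double-positive thymocytes, immature T cells positive for both CD4 and CD8, of which 9 had a probe set. Their median log2 level lay between 9.76 and 10.05 on all 5 arrays. Dexamethasone is a synthetic glucocorticoid, and most double-positive thymocytes die when exposed to one.

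Imprinted genes are transcribed mainly from the copy inherited from one parent, which is set by DNA methylation laid down in the germ line. Plagl1 (also Zac1 or Lot1) encodes a zinc finger transcription factor that is expressed from the paternal copy and can stop the cell cycle and induce apoptosis when overexpressed. In mouse tissues it belongs to a set of coexpressed imprinted genes that act on fetal growth, in part through the insulin-like growth factors. H19, Meg3, Cdkn1c, Igf2r and, in most tissues, Grb10 are expressed from the maternal copy. Igf2, Dlk1, Peg3 and Mest are expressed from the paternal copy.

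The RefSeq promoter table (GRCm38.p6, windows from 250 bases before to 50 bases after an annotated start) held 15 windows for 8 of the 10 genes. Of these, 4 are shown because they belong to the genes that differed by 2-fold with dexamethasone, Plagl1 and Grb10, and because the Peg3 window holds the motif that Plagl1 binds. Each is printed 5′ to 3′ on the strand of its gene, in lower case, and capitals mark matches to the motifs searched.
Plagl1, chr10:13090582-13090881, plus strand: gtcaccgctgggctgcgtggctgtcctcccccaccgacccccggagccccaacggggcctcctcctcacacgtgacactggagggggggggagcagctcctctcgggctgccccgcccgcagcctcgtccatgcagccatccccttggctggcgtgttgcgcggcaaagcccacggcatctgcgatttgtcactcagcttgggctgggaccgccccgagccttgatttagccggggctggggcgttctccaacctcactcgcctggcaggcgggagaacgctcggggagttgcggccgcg
Grb10, upstream start, chr11:12037371-12037670, minus strand: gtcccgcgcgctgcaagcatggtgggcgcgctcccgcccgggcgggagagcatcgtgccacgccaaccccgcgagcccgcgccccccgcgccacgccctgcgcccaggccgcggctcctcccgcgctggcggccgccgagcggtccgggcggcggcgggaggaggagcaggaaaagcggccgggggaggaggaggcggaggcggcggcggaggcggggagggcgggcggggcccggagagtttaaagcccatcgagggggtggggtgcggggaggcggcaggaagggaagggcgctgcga
Grb10, downstream start, chr11:12027922-12028221, minus strand: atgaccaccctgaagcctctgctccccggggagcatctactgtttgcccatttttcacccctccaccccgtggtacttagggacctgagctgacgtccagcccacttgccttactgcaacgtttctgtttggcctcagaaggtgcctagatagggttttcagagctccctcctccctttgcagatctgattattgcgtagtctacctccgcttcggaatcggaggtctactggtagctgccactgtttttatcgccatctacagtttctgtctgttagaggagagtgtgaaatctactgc
Peg3, chr7:6730370-6730669, minus strand: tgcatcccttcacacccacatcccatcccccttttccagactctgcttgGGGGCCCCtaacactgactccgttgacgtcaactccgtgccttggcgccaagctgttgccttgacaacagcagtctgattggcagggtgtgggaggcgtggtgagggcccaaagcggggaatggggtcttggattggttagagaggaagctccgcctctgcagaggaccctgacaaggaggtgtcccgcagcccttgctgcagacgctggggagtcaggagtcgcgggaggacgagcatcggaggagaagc
The motifs searched on both strands were the glucocorticoid receptor half-site TGTTCT, the palindromic glucocorticoid response element (AGAACA, any 3 bases, TGTTCT), which contains the half-site, and the Plagl1 site GGGGCCCC. The half-site occurred in 18.97% of all 32851 promoter windows, the palindrome in 0.00913% and the Plagl1 site in 1.08%. The Plagl1 window and both Grb10 windows held none of these letters. The Peg3 window held 1 Plagl1 site, which begins at position -201 from the start. Of the 15 windows, 1 held a half-site, at position -85 from an Igf2 start. The Plagl1 window had 26 CpG dinucleotides and a GC content of 70.7%, and 83.1% of all windows had fewer CpG. The upstream Grb10 window had 45 CpG, more than 98.1% of all windows, and the downstream one had 9.

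In culture, Plagl1 stood far higher with dexamethasone than with ethanol, and the other members differed by less than 2-fold. The probe set that represented Plagl1, 1426208_x_at, had a log2 level of 8.73 in cultured dexamethasone, against 5.66 in ethanol culture. It had 8.14 with dexamethasone in vivo, against 7.55 with PBS, and 7.61 in the untreated pool. Ethanol culture was thus the low array, and the other 4 lay within 7.55 to 8.73. Cultured dexamethasone was 8.42-fold above ethanol culture, a log2 difference of 3.07, while dexamethasone in vivo was 1.504-fold above PBS, a log2 difference of 0.59. PBS and untreated differed by -0.06.

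The culture difference of Plagl1 combined a low ethanol level with a dexamethasone level above the untreated pool. Ethanol culture stood 3.88-fold below untreated (-1.96), and cultured dexamethasone stood 2.17-fold above untreated (1.12). In vivo, dexamethasone was 0.52 above untreated. These differences all use the untreated array and so are not independent of each other.

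**Figure D1:**
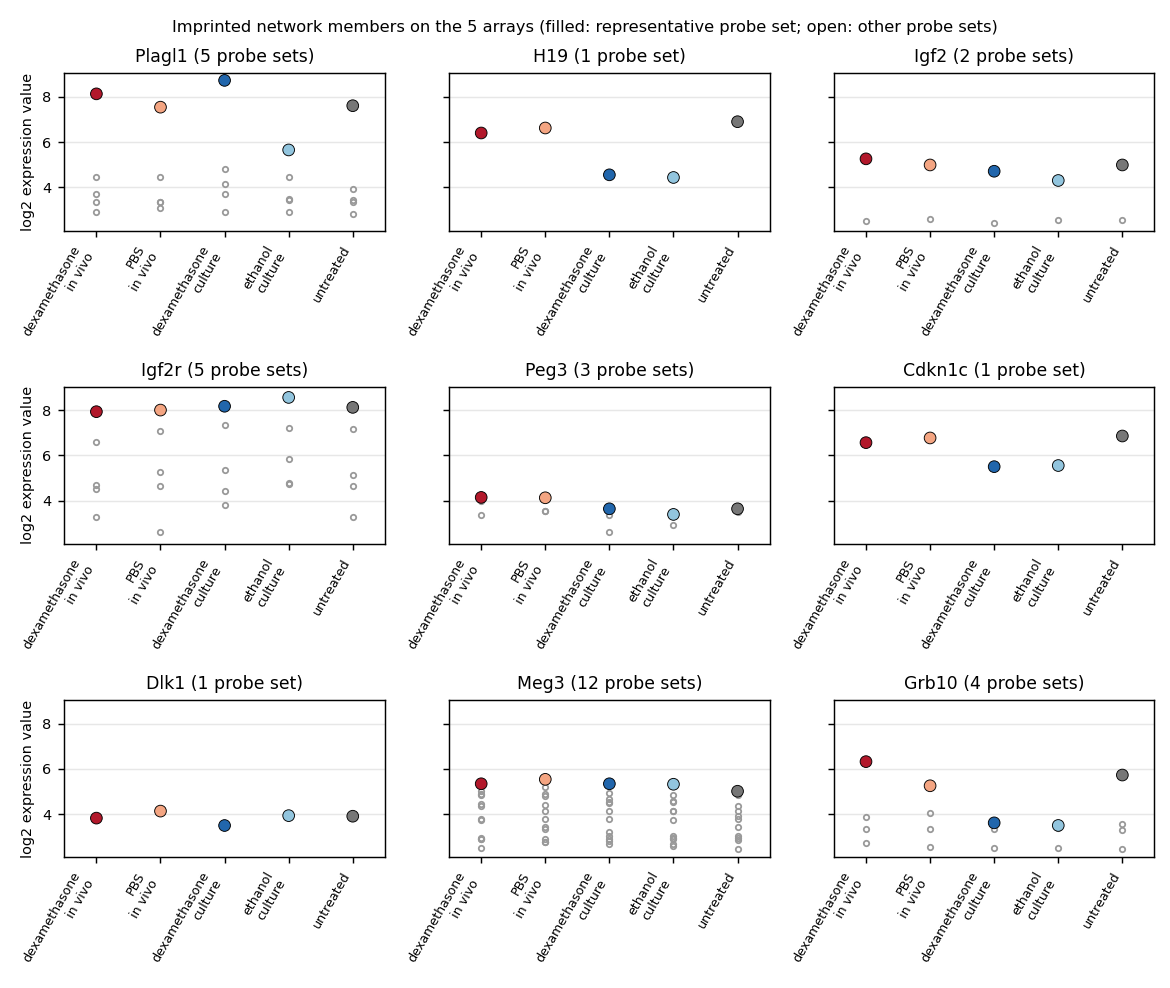
Log2 expression value (y axis) of each measured member on the 5 arrays (x axis), 1 panel per gene, with filled points for the representative probe set and open points for the others; each array is 1 pool. In the representative probe sets, Plagl1 is lowest in ethanol culture at 5.66 and highest in cultured dexamethasone at 8.73. H19, Cdkn1c and Grb10 are low on both cultured arrays in theirs.

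The pattern of Plagl1 came from 1 of its 5 probe sets. The suffix _x_at marks a probe set whose probes may also match other transcripts, and whether they did here was not tested. The other 4 probe sets of Plagl1 ran between 2.82 and 4.80 on all arrays. Probe set 1450533_a_at had 4.13 in cultured dexamethasone against 3.43 in ethanol culture, 3.35 both with dexamethasone in vivo and with PBS, and 3.45 untreated. It too was highest in cultured dexamethasone, with a log2 difference of 0.70, but ethanol culture was not below untreated by more than 0.03. Probe set 1433221_at had 4.80 in cultured dexamethasone against 4.45 in ethanol culture, and 1438588_at had 3.70 against 3.51. Probe set 1433222_at was at 2.91 on both cultured arrays. Between dexamethasone and ethanol in culture, 4 of the 5 were higher and 1 was equal. With the log2 values of all 5 probe sets averaged, the culture difference of Plagl1 was 0.86 in place of 3.07, and ethanol culture minus untreated was -0.24 in place of -1.96.

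A gene with several probe sets was read from the one of highest mean log2 level, and genes whose mean reached the median over genes, 5.28, were kept for counting. Of the 9 measured members, 5 were kept, namely Plagl1, H19, Igf2r, Cdkn1c and Meg3, and 4 were below, namely Igf2, Peg3, Dlk1 and Grb10. In culture, 1 of the 5 kept members (Plagl1) was at least 2-fold higher with dexamethasone, where 1.53% of 9882 kept genes were, and none was 2-fold lower, where 0.86% were. In vivo, 0 of the 5 were 2-fold different with dexamethasone, where 4.19% of kept genes were. Between PBS and untreated it was also 0 of 5, where 0.567% of kept genes were. Between cultured dexamethasone and untreated it was 3 of 5, Plagl1 higher and H19 and Cdkn1c lower, where 13.6% of kept genes were. Without the level filter, 1 of 9 members was 2-fold higher in each setting, Grb10 in vivo and Plagl1 in culture, where 2.27% and 1.03% of 19764 genes were. Since Plagl1 was known from these arrays when the group was drawn up, nothing is read from these shares. The median difference of the 9 members was -0.07 in vivo and 0.11 in culture, against -0.02 and 0.00 over all genes.

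**Figure D2:**
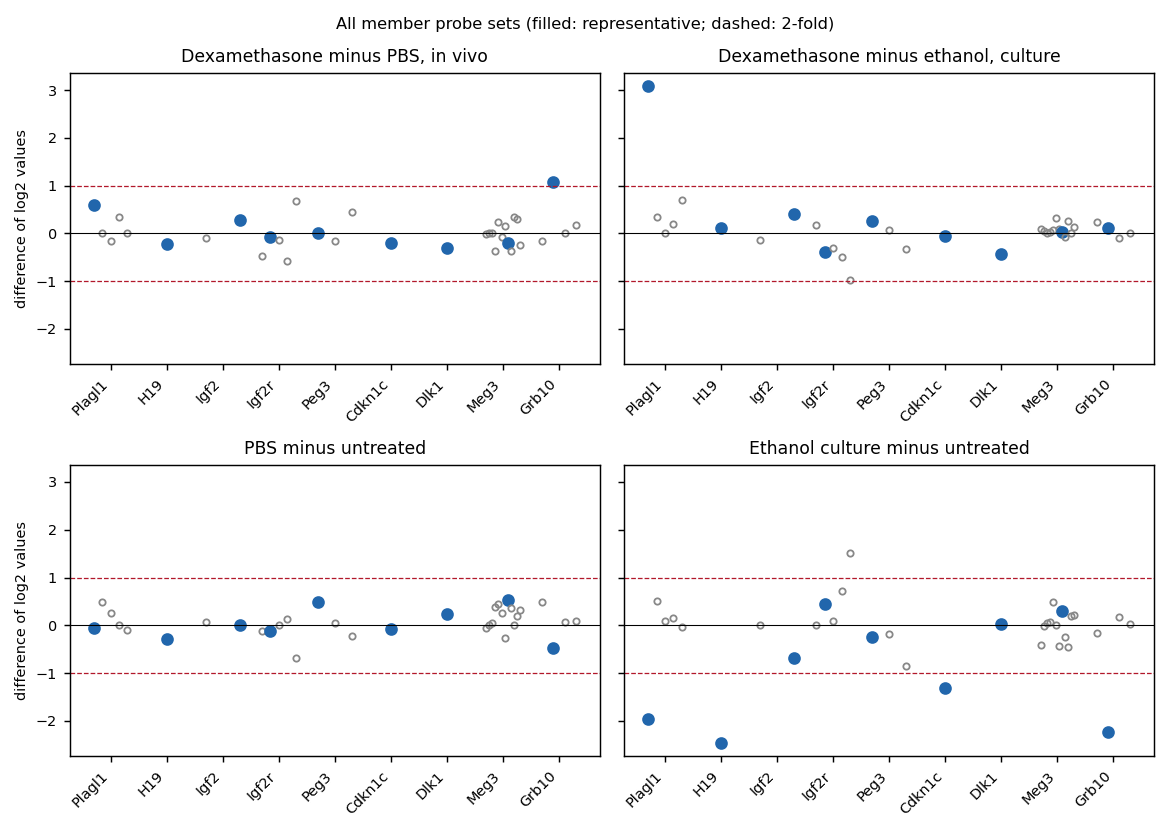
Difference of log2 values (y axis) of all 34 member probe sets in 4 comparisons, 1 panel each, with filled points for representative probe sets, open points for the others and dashed lines at 2-fold. In culture 1 probe set of Plagl1 stands at 3.07, and in vivo 1 probe set of Grb10 at 1.07. In ethanol culture minus untreated 4 probe sets lie below -1 and 1, of Igf2r, lies above 1.

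Over all 34 probe sets, counted one by one, 30 differed by less than 0.5 between dexamethasone and PBS in vivo, and 30 between dexamethasone and ethanol in culture. At 2-fold, 1 probe set was higher in vivo and 1 in culture, where 2.06% and 0.722% of all probe sets were, and 4 were lower in ethanol culture than untreated, where 5.01% were. In that last comparison 1 was 2-fold higher, Igf2r 1458179_at (1.51), where the share counted over kept genes was 3.1%. Between PBS and untreated, 32 differed by less than 0.5, and 25 did between ethanol culture and untreated. The share of all probe sets within 0.5 was not computed, so nothing about the members is read from these counts. Of the 170 values, 34 lay below the lower quartile of the whole table. Apart from level, 69 of the 170, or 40.6%, were identical to 5 decimals to a value elsewhere on that array, against 41.96% of all values. Probe sets of 1 gene share their target and are not separate evidence.

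The growth factor branch of the group is Igf2, a fetal growth factor, with Igf2r, the receptor that carries Igf2 and mannose-6-phosphate-tagged enzymes to lysosomes. Igf2 (1448152_at) had a log2 level of 5.26 with dexamethasone in vivo against 4.99 with PBS, 4.71 in cultured dexamethasone against 4.31 in ethanol culture, and 4.99 untreated. It was the higher of each pair with dexamethasone, by 0.27 in vivo and 0.41 in culture. The second Igf2 probe set, 1415931_at, was between 2.41 and 2.61 on all arrays, below 2.97, the lower quartile of the whole table, and was 0.10 and 0.13 lower with dexamethasone.

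Igf2r (1424112_at) had 7.94 with dexamethasone in vivo against 8.01 with PBS, 8.18 in cultured dexamethasone against 8.57 in ethanol culture, and 8.13 untreated. Its ethanol culture array was the high one, and its whole range over the 5 arrays was 0.63. Of its 5 probe sets, 4 were lower with dexamethasone in vivo and 4 in culture, and all 5 were higher in ethanol culture than untreated, by 0.01 to 1.51. The 1.51 belonged to 1458179_at, which had 3.81 in cultured dexamethasone against 4.79 in ethanol culture, and 3.28 untreated.

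Airn, a long noncoding RNA that silences Igf2r and its neighbours on the paternal copy in mouse, overlaps Igf2r by 28396 bases on chromosome 17. All 4 Airn probe sets were higher in ethanol culture than untreated, by 0.88 to 2.13. Its representative probe set, 1451634_at, had 6.61 in cultured dexamethasone against 7.19 in ethanol culture, and 5.90 with dexamethasone in vivo against 6.31 with PBS. The Airn probe sets differed in direction with dexamethasone. In vivo 1457356_at had 5.63 against 4.55 with PBS, a difference of 1.07, 1445966_at was at 0.21 and 1436627_at at -0.82. In culture these 3 were at -0.43, -0.67 and 0.45. In the files, which probe sets of this region report which strand is not stated, so Igf2r and Airn signal within the overlap cannot be told apart. Slc22a3, an organic cation transporter gene of the same imprinted cluster, had 4.11 in cultured dexamethasone against 5.19 in ethanol culture, a difference of -1.09 at levels under the filter.

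Grb10 encodes an adaptor that dampens insulin and insulin-like growth factor receptor signalling. Its probe set 1425458_a_at had 6.32 with dexamethasone in vivo against 5.25 with PBS, 3.61 in cultured dexamethasone against 3.49 in ethanol culture, and 5.72 untreated. The in vivo difference was 1.07, or 2.10-fold, and against the untreated pool it was 0.59. Both cultured arrays were low, with ethanol culture at -2.23 against untreated. In the authors' deposited table of in vivo differences, which lists probe sets past 2-fold either way, this was the 1 member probe set present, at 1.07. The other 3 probe sets of Grb10 lay between 2.47 and 4.03 and differed in vivo by -0.16 to 0.17.

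Cdkn1c encodes p57Kip2, an inhibitor of cyclin-dependent kinases, and Plagl1 has been reported to raise it in mouse. Its single probe set had 6.57 with dexamethasone in vivo against 6.77 with PBS, 5.51 in cultured dexamethasone against 5.56 in ethanol culture, and 6.86 untreated. Dexamethasone and vehicle thus lay close in both settings (-0.21 and -0.05), while both cultured arrays were lower than the untreated one. Ethanol culture was 2.47-fold below untreated.

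H19 is a long noncoding RNA on chromosome 7, separated from Igf2 by 72621 bases, and is the precursor of miR-675. Its single probe set had 6.41 with dexamethasone in vivo against 6.63 with PBS, 4.56 in cultured dexamethasone against 4.44 in ethanol culture, and 6.90 untreated. Again the 3 arrays of uncultured cells were high and both cultured arrays low, with ethanol culture 5.52-fold below untreated (-2.47). The 2 mature forms of miR-675 are shown because H19 is their source, with the seed (bases 2 to 8) in capitals, from RefSeq. The array values are of H19 and say nothing of the mature forms.
mmu-miR-675-5p: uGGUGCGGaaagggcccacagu
mmu-miR-675-3p: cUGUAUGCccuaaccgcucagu
The 2 forms come from opposite arms of 1 hairpin and share no seed.

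Dlk1, a transmembrane relative of the Notch ligands, and Meg3, a long noncoding RNA, lie 77659 bases apart on chromosome 12 and are expressed from opposite parental copies. Dlk1 had 3.82 with dexamethasone in vivo against 4.13 with PBS, 3.49 in cultured dexamethasone against 3.93 in ethanol culture, and 3.90 untreated. It was the lower of each pair with dexamethasone, by 0.31 and 0.44, at levels below the array medians of 4.23 to 4.37. Meg3 had 12 probe sets, with values between 2.45 and 5.53. Its representative, 1439380_x_at, had 5.34 with dexamethasone in vivo against 5.53 with PBS, 5.34 in cultured dexamethasone against 5.32 in ethanol culture, and 5.01 untreated. In vivo, 4 of the 12 were higher with dexamethasone, 6 lower and 2 equal, all within -0.37 to 0.33. In culture 9 were higher, 1 lower and 2 equal, within -0.07 to 0.32.

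Peg3, a zinc finger protein gene expressed from the paternal copy, had 4.15 with dexamethasone in vivo against 4.13 with PBS, 3.64 in cultured dexamethasone against 3.39 in ethanol culture, and 3.64 untreated. Its promoter window was the one with a Plagl1 site, shown above. All 3 Peg3 probe sets were at or below 4.15 on every array, and their culture differences ran from -0.32 to 0.25.

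Culture without dexamethasone went with lower levels of 4 members, H19, Grb10, Plagl1 and Cdkn1c, in their representative probe sets. Of all probe sets, 3 of 5 for Plagl1 and 2 of 4 for Grb10 were higher in ethanol culture than untreated, by up to 0.51 and 0.17. Among the 5 kept members, 3 were at least 2-fold lower in ethanol culture than untreated, where 8.07% of kept genes were. Over all 9, it was 4, where 7.14% of all genes were, and none was 2-fold higher. The median of the 9 was -0.69, against 0.02 over all genes. Of these 4, H19, Grb10 and Cdkn1c differed by 0.12 or less in size between cultured dexamethasone and ethanol, and Plagl1 by 3.07.

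Markers of stromal and myeloid cells moved with this comparison. In ethanol culture minus untreated, 11 of 12 thymic epithelium markers, 8 of 10 stromal fibroblast markers, 7 of 8 adipocyte markers and 8 of 8 macrophage markers were at least 2-fold lower. The summed intensity of the thymic epithelium markers was 351 in cultured dexamethasone and 319 in ethanol culture, against 12054 untreated. For adipocyte markers it was 105 and 92.3, against 6372, and for macrophage markers 569 and 751, against 8104. For fibroblast markers, which include Thy1, a gene also expressed by thymocytes, it was 3591 and 3444, against 6029. Dendritic cell markers had 4 of 7 lower and 1 higher, Ccr7 (1.32). Endothelial and B cell markers had 2 of 7 and 2 of 6 lower. None of 9 double-positive thymocyte, 5 erythroid and 7 granulocyte markers was 2-fold different. In a suspension, fewer cells of a type and less RNA per cell cannot be told apart. The part of these cells in the lower levels of H19, Grb10, Cdkn1c and Plagl1 was not tested.

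Between dexamethasone and ethanol in culture, where Plagl1 differed by 3.07, the marker lists had medians of 0.25 (thymic epithelium), 0.27 (fibroblast), -0.01 (adipocyte), -0.28 (macrophage), -0.63 (dendritic cell), -0.20 (endothelium), -0.29 (B cell), -0.42 (double-positive thymocyte), 0.01 (erythroid) and 0.24 (granulocyte). Of these lists, the fibroblast one had 3 of 10 markers 2-fold higher, namely Pdgfrb (2.87), Col1a1 (1.33) and Mgp (1.13), while Lum (-0.48), Fbln1 (-0.32) and Col1a2 (-0.06) were lower. The dendritic cell list had 2 of 7 at least 2-fold lower, Itgax (-1.11) and H2-Ab1 (-1.15). In vivo, where Grb10 was at 1.07, adipocyte markers had a median of 0.75 and a summed intensity of 9010 with dexamethasone against 5308 with PBS. Macrophage markers had a median of 0.38 in vivo and a summed intensity of 9521 against 8465. Double-positive thymocyte markers had a median of -0.48 in vivo, with 3 of 9 at least 2-fold lower and a summed intensity of 11927 against 17971. The other in vivo medians were 0.01 (thymic epithelium), 0.15 (fibroblast), 0 (endothelium), 0.11 (dendritic cell), -0.20 (B cell), -0.28 (erythroid) and -0.37 (granulocyte). In these lists Emcn (1.89) and Mgp (1.08) were 2-fold higher. Psmb11 (-1.46), Car2 (-1.22), Ms4a1 (-1.08) and Foxn1 (-1.02) were 2-fold lower. The part of these cells in the Grb10 value was not tested.

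**Figure D3:**
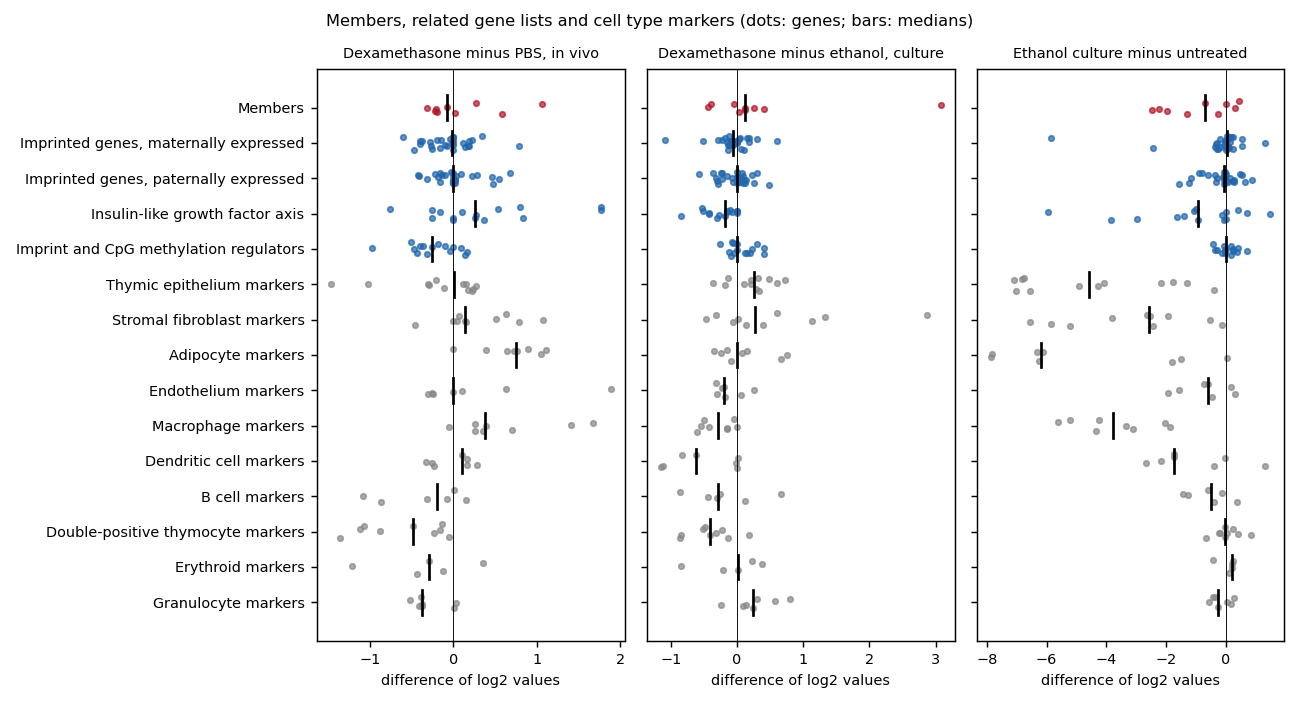
Difference of log2 values (x axis) for each gene (dots) with the list median (bars), for the members, related gene lists and cell type markers (rows), in 3 comparisons with their own x axis ranges. Plagl1 is the single member near 3 in culture, and thymic epithelium, adipocyte and macrophage markers have medians of -4.59, -6.18 and -3.79 in ethanol culture minus untreated.

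The 4 genes whose pattern over the 5 arrays was most like that of Plagl1 were Pdgfrb, Nars2, Frmd4a and Coro2a. Likeness was the root mean square difference of log2 values, each centred on the gene's mean, among kept genes, and it ran from 0.30 for Pdgfrb to 0.39 for Coro2a. Nars2, which encodes the mitochondrial asparaginyl-tRNA synthetase, had 8.16 with dexamethasone in vivo against 6.75 with PBS, 8.96 in cultured dexamethasone against 5.41 in ethanol culture, and 7.21 untreated. Pdgfrb, the platelet-derived growth factor receptor beta gene, had 6.76 in cultured dexamethasone against 3.89 in ethanol culture, and the same value, 6.34, on the other 3 arrays. In the representative probe sets of all 4 genes ethanol culture was the low array, as for Plagl1, which follows from how they were chosen. In vivo they split: Nars2, Frmd4a and Coro2a stood 1.42 to 1.63 above PBS, whereas Pdgfrb stood at 0 and Plagl1 at 0.59. The second probe sets of Pdgfrb and Frmd4a had culture differences of 0.54 and 0.07. The other probe sets of Nars2 were at 2.15 (1442989_at) and 0.56 (1435707_at) in culture. In ethanol culture minus untreated they were at 0.05 and -0.17, against -1.79 for the representative. Coro2a had 1 probe set. For Pdgfrb, Nars2 and Frmd4a an over 2-fold lower level in ethanol culture than untreated was thus seen in 1 probe set each.

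**Figure D4:**
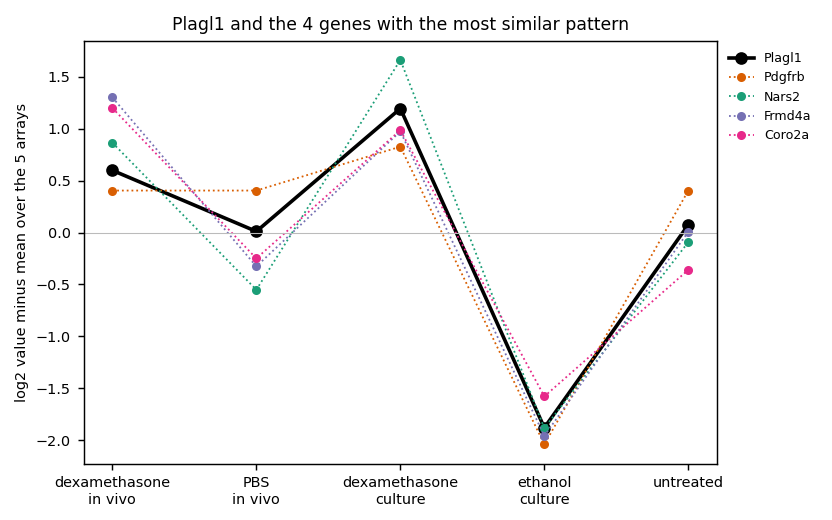
Log2 value minus the gene's mean over the 5 arrays (y axis) for Plagl1 (solid line) and the 4 most similar genes (dotted lines) on each array (x axis); lines join points of 1 gene and imply no order. All 5 genes are lowest in ethanol culture, which follows from the choice by likeness. Nars2, Frmd4a and Coro2a differ more than Plagl1 between dexamethasone and PBS in vivo.

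Genes beside Plagl1 on chromosome 10 differed by less than 2-fold in culture. For 10 protein-coding genes between 17950 and 515360 bases away, the differences between dexamethasone and ethanol in culture ran from -0.28 to 0.46. Of the 10, 8 were kept, and 2.39% of all kept genes were 2-fold different in this comparison. With so few genes a count of 0 is near that share, and nothing particular to the region is read from it. Zc2hc1b, the nearest of these, stood at 0.22, at levels under the filter, and Ltv1, a ribosome assembly factor gene, at 0.37. In ethanol culture minus untreated, where Plagl1 was at -1.96, Stx11, a syntaxin gene of immune cells, was at -1.69 and Adat2, a tRNA deaminase subunit gene, at 1.87.

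A wider list of 62 imprinted genes, without the members, was also counted. Of these, 56 had a probe set and 21 passed the level filter. Among the 21, 0 were 2-fold different in vivo and 0 in culture, where 4.19% and 2.39% of kept genes were. With 21 genes, counts of 0 are near those shares, and nothing particular to the list is read from them. Their median difference was 0 in vivo and -0.07 in culture, against -0.07 and 0.04 over all kept genes. In ethanol culture minus untreated, 1 was 2-fold higher, Tspan32 (1.32), and 3 were lower, where 3.1% and 8.07% of kept genes were. The lower ones were Dcn (-5.86), the matrix proteoglycan decorin and also one of the fibroblast markers, Gatm (-2.42), a creatine synthesis enzyme gene, and Mcts2 (-1.23).

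The insulin-like growth factor axis holds the ligands, receptors and binding proteins through which several members act. The list used also held Irs1 and Igf2bp1 to Igf2bp3, which do not encode ligands, receptors or binding proteins of these growth factors. Of 16 listed genes, 15 had a probe set and 9 were kept. In vivo, 7 of the 9 were higher with dexamethasone, with a median of 0.37 against -0.07 over all kept genes. The 2 lower ones were Igf2bp3 (-0.75) and Igfbp4 (-0.26). Igfbp5 and Igfbp3, which encode binding proteins for insulin-like growth factors, were 2-fold higher, so 2 of the 9, where 2.71% of kept genes were. Among the marker lists, adipocyte and macrophage markers had the highest medians in this comparison, 0.75 and 0.38. The part of these or the other listed cells in these values was not tested. Igfbp5 (1452114_s_at) had 9.53 with dexamethasone in vivo against 7.76 with PBS, and 8.43 untreated. Its second probe set, 1422313_a_at, differed by 0.88 in vivo, under 2-fold, by 0.00 in culture and by -0.22 in ethanol culture minus untreated. Igfbp3 had 7.74 with dexamethasone in vivo against 5.97 both with PBS and untreated. In culture all 9 were lower with dexamethasone than with ethanol, by 0.07 to 0.84, with a median of -0.30 against 0.04 over all kept genes, and none by 2-fold. Of all 9882 kept genes, 4023 were lower in that comparison. The filter used the mean over all arrays, and some of the 9 were under its level on both cultured arrays. In cultured dexamethasone and ethanol culture, Igfbp5 (1452114_s_at) had 2.33 and 2.48, Igf1 3.96 and 4.11, and Igfbp6 4.33 and 5.17. Igfbp7 had 4.53 and 5.05, and Igfbp3 4.54 and 4.97. Igf1r, Insr, Igfbp4 and Igf2bp3 were above it, between 6.41 and 8.58. The shared direction of the 9 thus rests in part on low signals. The difference between the settings was not tested. Igf1r, the signalling receptor for both growth factors, was at 0.54 in vivo and -0.54 in culture, and the insulin receptor gene Insr at 0.83 and -0.30. In ethanol culture minus untreated, 5 of the 9 were 2-fold lower, where 8.07% of kept genes were, among them Igfbp5 (-5.95 for 1452114_s_at), Igfbp7 (-3.84) and Igf1 (-2.96), beside the marker levels given above, and Igf1r was 2-fold higher (1.497), where 3.1% of kept genes were.

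Of 17 genes listed as regulators of imprints or of CpG methylation, 12 were kept. None of the 12 was 2-fold different with dexamethasone, where 4.19% of kept genes were in vivo and 2.39% in culture, so the count is near the background. In vivo 9 of the 12 were lower and 3 higher, with a median of -0.14, while 5788 of all 9882 kept genes were lower and their median was -0.07. Uhrf1, which recruits the maintenance methyltransferase to replicating DNA, had 8.96 with dexamethasone against 9.93 with PBS. Dnmt1, that methyltransferase, had 9.18 against 9.35 in vivo and 10.03 against 9.62 in culture. Trim28, a corepressor that protects imprints, was at -0.47 in vivo and 0.12 in culture.

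Plagl1's zinc finger relatives and genes reported as its targets or partners were also examined, 13 in all, of which 9 were kept. Plagl2 differed by -0.04 in vivo and -0.02 in culture, and Plag1 was near 2.6 to 2.75 on all arrays. Slc2a4, the insulin-responsive glucose transporter gene GLUT4, had 6.77 with dexamethasone in vivo against 5.63 with PBS. In cultured dexamethasone it had 4.76 against 4.84 in ethanol culture. It was the 1 of the 9 that was 2-fold different in vivo, where 4.19% of all kept genes were. Pparg, under the filter, was at 1.36 in vivo. Adipocyte markers had a median of 0.75 in that comparison, and the part of these cells in both values was not tested. Socs3, an inhibitor of cytokine signalling, had 4.72 in cultured dexamethasone against 6.71 in ethanol culture, and 7.04 against 7.39 in vivo. It was the 1 of the 9 that was 2-fold different in culture, where 2.39% of all kept genes were. Cdkn1a, which encodes the cyclin-dependent kinase inhibitor p21, was at 0.96 in vivo and 0.26 in culture.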

How the data were processed

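RNA of 5 pools was measured on Affymetrix arrays, 1 per group, with groups taken from the sample titles. Per the submitters' processing notes the authors used RMA. No source used here gives its version or settings. The deposited expression table holds log2 values and the deposited series matrix the same values as linear intensity, equal to within 7.11e-15 after taking log2. Detection calls were not used.

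Probe sets were named by current symbol, accession or unique synonym through a RefSeq gene table (GRCm38.p6). The probe set of highest mean log2 value stood for its gene, and genes with a mean at or above 5.28 were kept. Differences of log2 values were counted at 1 or more. With 1 array per group no test was run. An additive model over 4 arrays was not used, since its residual is the difference between settings. The code for gene selection was run on simulated arrays in which all probe sets of a changed gene were shifted well past the cut. Recovery was fixed by that setting, so it checks the code only. It does not cover genes whose change sits in 1 of several probe sets. Calculations used Python 3.11.15, pandas 2.3.3 and numpy 2.4.6.

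Members and lists were chosen with earlier results of these data known. Named genes are all members, listed genes that passed the filter and differed by at least 1 with dexamethasone, the 5 genes most like Plagl1, of which 1 is not reported here, and further genes of the lists, named after their values were seen. Alternatives were the mean over probe sets, no level filter, median centring, quantile normalization, a floor, the series matrix and the untreated array as reference.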

Additional observations from a re-analysis of the deposited data

Results flagged for a closer look

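Some genes had differences of opposite sign in the 2 settings, those in culture being 0.42 or less in size. With 1 array per group none of these differences was tested. The difference in vivo less that in culture was -0.34 for H19 and -0.22 for Meg3, where each single difference was 0.22 or less in size. It was 2.19 for Igfbp3, 1.92 for Igfbp5 and 1.22 for Slc2a4, which were 2-fold higher with dexamethasone in vivo and at -0.42, -0.15 and -0.08 in culture. The Igfbp5 values belong to 1452114_s_at, and its second probe set was at 0.88 in vivo, 0.00 in culture and -0.22 in ethanol culture minus untreated. On the ethanol culture array these 3 stood at -1.01, -5.95 and -0.83 against untreated. On both cultured arrays the log2 levels of these 3 were under the filter level, so their culture differences are between low signals. Igfbp5 (1452114_s_at) was lowest, at 2.33 in cultured dexamethasone and 2.48 in ethanol culture.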

How the results depend on the processing

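Averaging all probe sets of a gene left 0 members 2-fold different in culture in place of 1, with Plagl1 at 0.86 in culture and -0.24 in ethanol culture minus untreated, and Grb10 at 0.27 in vivo and -0.55 in ethanol culture minus untreated. Without the level filter 1 member (Grb10) differed in vivo in place of 0, and 1 gene of the wider imprinted list (Slc22a3) in culture in place of 0. Over all genes the counts without the filter were 644 in vivo, 109 for PBS minus untreated and 1835 for ethanol culture minus untreated, in place of 414, 56 and 1103, with 19764 genes in place of 9882. With the untreated array in place of ethanol culture, 3 members differed, 1 higher and 2 lower, with 5 of the wider list and 1340 of all genes. In that setting Grb10 was at 0.59 in vivo, and H19, Cdkn1c and Grb10 at -2.35, -1.36 and -2.11 in culture. Of 234 differences of single members over 7 alternatives, 226 stayed on their side of 2-fold and 8 crossed it. In 0 cases did a member go from 2-fold in one direction to 2-fold in the other. The sign did change for H19 and Grb10 in culture, from 0.12 and 0.11 to -2.35 and -2.11 with the untreated array as reference. Dropping the filter, the floor and the series matrix left every representative member value as it was. Their 36 differences each could therefore not cross and say nothing of stability. All 8 crossings came with the mean over probe sets or the untreated array as reference. Median centring and quantile normalization moved no member across 2-fold. No paired analysis was possible because each group had 1 array and the labels give no replicate numbers. Low signal limits Dlk1, Peg3, Igf2 and most Meg3 probe sets, and on the cultured arrays also H19 and Grb10.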
